A study of Mus musculus with 12 samples.

Results

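Galectins are small lectins that bind galactose-containing sugars on glycoproteins and glycolipids, outside cells and, once a membrane is broken, on the exposed inner face of endosomes and lysosomes. They are grouped as prototype (galectin-1), chimera (galectin-3) and tandem-repeat forms (galectin-8 and galectin-9), and in dendritic cells and macrophages they take part in adhesion, T cell control and the handling of damaged vacuoles. Lgals3bp encodes a secreted, heavily glycosylated protein that galectins bind, and it is widely known as an interferon-inducible gene. The 5 genes described here are Lgals3bp, Lgals9, Lgals1, Lgals3 and Lgals8, taken by symbol from a table of 42687 Ensembl gene identifiers. All 5 were found and all 5 passed the filter on low counts, as did 13261 genes in all. In the GENCODE M21 annotation of GRCm38, Lgals3bp (ENSMUSG00000033880) and Lgals9 (ENSMUSG00000001123) lie on the minus strand of chromosome 11, Lgals8 (ENSMUSG00000057554) on the minus strand of chromosome 13, Lgals3 (ENSMUSG00000050335) on the plus strand of chromosome 14 and Lgals1 (ENSMUSG00000068220) on the plus strand of chromosome 15. They had been chosen by symbol with their counts in these same libraries in view, across every group, so their levels and fold changes are a description and carry no test here.

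Polyadenylated RNA was sequenced from DC2.4, a mouse dendritic cell line kept in culture and labelled as wild type, in 12 libraries that formed 4 groups of 3. One group received 15 µg/mL of the extracellular vesicles labelled ATEV, a name the labels do not spell out. Another received 15 µg/mL of ATEV that had first been incubated with Baseline-ZERO DNase, which digests DNA (DNase-ATEV). NTEV, the vesicles of non-activated T cells, were given at 30 µg/mL, and the control group received phosphate-buffered saline (PBS). The labels tie 5 µg/mL of vesicle DNA to these doses, and whether that holds for ATEV, NTEV or both is not clear from them. Cells were harvested and replated the day after treatment, a procedure carried out 3 times, and the labels leave it unclear whether these were rounds on the same cells or separate experiments. No label states that libraries within a group derive from different cultures, so the spread between them may be technical.

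Libraries held 19392942 to 30383572 gene counts. The leading principal component (34.9% of the variance) put DNase-ATEV replicate 1 and NTEV replicate 1 on the side of the 3 PBS libraries and the other vesicle libraries on the opposite side. Of 16 myeloid and dendritic cell markers 15 had a count. Ptprc ran from 242 to 329 CPM (counts scaled to a common library size, here with the TMM method), Csf1r from 411 to 626 CPM and Itgax from 12.7 to 48.1 CPM. Several defining dendritic cell markers were at or near 0. Over the 12 libraries there were 6 counts of Flt3, 23 of H2-Aa, 34 of H2-Ab1, 27 of Xcr1 and none of Clec9a. Others were counted in every library. Irf8 ran from 94.3 to 186 CPM, Cd74 from 64.5 to 188, Zbtb46 from 3.56 to 9 and Batf3 from 2.6 to 6.79. The summed level of the 16 markers was 2308 to 2336 CPM in ATEV, 1883 to 2079 in DNase-ATEV, 2010 to 2082 in NTEV and 1972 to 2062 in PBS, and its part in the results below was not tested. T cell markers, which T cell vesicles could bring in, had a count for 8 of 14, with Cd3e, Cd8a, Trbc1, Trbc2, Il2ra and Gzmb at 0 in every library. Their summed level was 43.1 to 62.2 CPM in ATEV, 52.9 to 59.7 in DNase-ATEV, 34.8 to 52.5 in NTEV and 59.5 to 102 in PBS, and 2 of them, Lck and Cd28, had enough counts to be tested.

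Lgals3bp was the member with the widest separation between groups. The ATEV libraries held 81.9, 85.1 and 74 CPM. Those of DNase-ATEV held 31.2, 33.1 and 29.9 CPM, those of NTEV 26.2, 31 and 30.4 CPM, and those of PBS 17.4, 17.1 and 18.5 CPM. Every ATEV library lay far above every other library, every PBS library lay below every other library, and the DNase-ATEV and NTEV libraries overlapped each other in between. In bulk RNA, a change in the level per cell and a change in the number of cells that make the transcript cannot be told apart. The mean was 80.3 ± 5.71 CPM in ATEV and 17.7 ± 0.731 CPM in PBS (SD, n = 3 each), a fitted log2 fold change of 2.18 ± 0.12 (SE), or 4.55-fold with a 95% interval of 3.82 to 5.41.

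Vesicles that had been exposed to DNase, and vesicles of non-activated T cells, went with a smaller excess of Lgals3bp. The log2 fold change was 0.83 ± 0.11 for DNase-ATEV against PBS (1.78-fold, 95% interval 1.5 to 2.11) and 0.72 ± 0.11 for NTEV against PBS (1.65-fold, 1.39 to 1.96). The DNase-ATEV excess over PBS was 13.8 CPM, which is 22% of the 62.7 CPM by which ATEV exceeded PBS, with single libraries at 19.6 to 24.7%. For NTEV the excess was 11.5 CPM, or 18.3%, with single libraries at 13.6 to 21.2%. Set directly against the other vesicle groups at their own doses, ATEV stood 1.35 ± 0.11 higher on the log2 scale than DNase-ATEV (2.56-fold, 95% interval 2.16 to 3.03) and 1.46 ± 0.11 higher than NTEV (2.76-fold, 2.33 to 3.26). The NTEV dose was 30 against 15 µg/mL, so the kind of vesicle and its dose cannot be told apart in that last comparison.

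**Figure D1:**
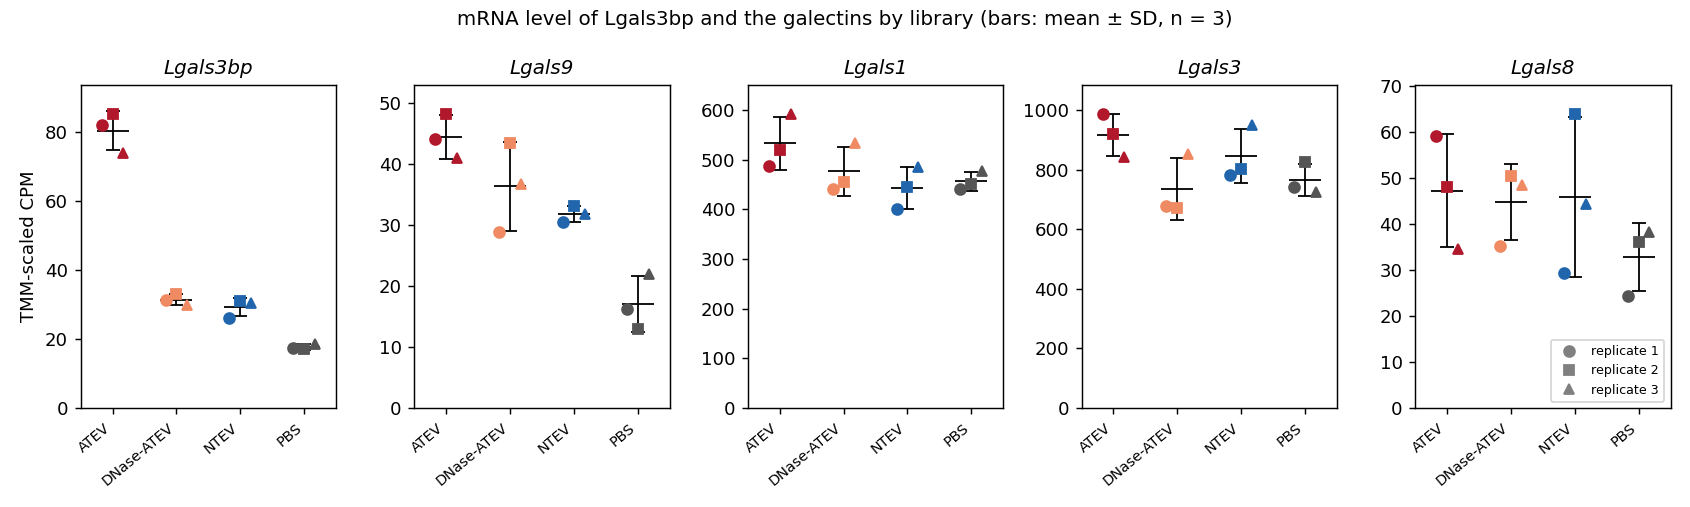
TMM-scaled CPM (y axis, from 0) of each of the 5 genes in each of the 12 libraries, by group, with the mean and SD of 3 libraries. Lgals3bp lies at 74 to 85.1 CPM in ATEV and at 17.1 to 18.5 CPM in PBS with the other vesicle groups between, Lgals9 is above PBS in every vesicle library, and the Lgals1, Lgals3 and Lgals8 groups lie close together.

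Lgals9, which encodes a tandem-repeat galectin that binds the checkpoint receptor TIM-3 and is inducible by interferon, was high in all 3 vesicle groups. The ATEV libraries held 44.1, 48.2 and 41.1 CPM. Those of DNase-ATEV held 28.9, 43.5 and 36.8 CPM, those of NTEV 30.6, 33.2 and 31.9 CPM, and those of PBS 16.3, 13 and 22 CPM. All 9 vesicle libraries lay above the highest PBS library, and DNase-ATEV overlapped both ATEV and NTEV. The fitted log2 fold change was 1.38 ± 0.19 for ATEV against PBS (2.60-fold, 95% interval 1.97 to 3.44). It was 1.09 ± 0.19 for DNase-ATEV against PBS (2.13-fold, 1.61 to 2.82) and 0.90 ± 0.19 for NTEV against PBS (1.87-fold, 1.41 to 2.46).

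The gap between ATEV and the other vesicle groups was narrower for Lgals9 than for Lgals3bp, a description of 2 genes whose levels were known when they were picked. ATEV stood 0.29 ± 0.18 above DNase-ATEV on the log2 scale, a fold of 1.22 with a 95% interval of 0.93 to 1.61, and 0.48 ± 0.18 above NTEV, a fold of 1.40 with an interval of 1.06 to 1.83. DNase-ATEV showed 70.5% of the 27.4 CPM by which ATEV exceeded PBS, with single libraries at 43.3 to 96.3%. NTEV showed 54%, with single libraries at 49.3 to 58.7%. DNase-ATEV replicate 1, the library that lay beside PBS on the first principal component, had the lowest Lgals9 level of its group, and without it the log2 fold change against PBS was 1.22. Its Lgals3bp level was between those of its companions, and without it that fold change stayed at 0.83.

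**Figure D2:**
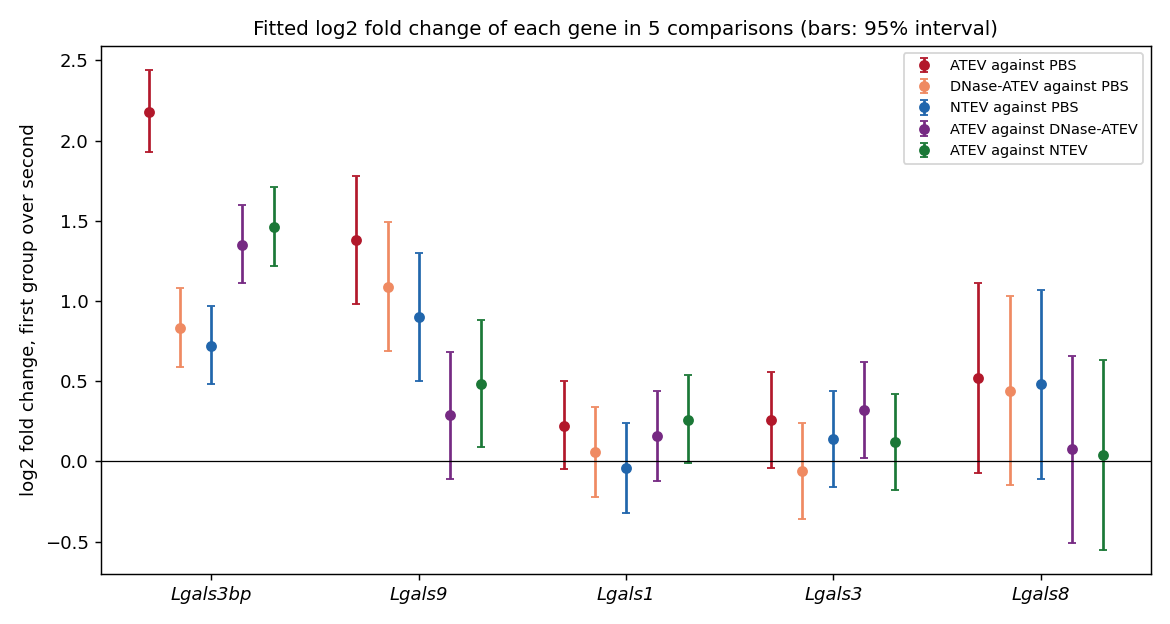
Fitted log2 fold change (y axis) of each gene in 5 comparisons, with 95% intervals from the edgeR fit to all 12 libraries. The comparisons with PBS share the PBS libraries, and those with ATEV share the ATEV libraries. Lgals3bp runs from 0.72 to 2.18, and the 15 intervals of Lgals1, Lgals3 and Lgals8 include 0 with the exception of Lgals3 in ATEV against DNase-ATEV.

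The promoters of Lgals3bp and Lgals9 are shown because both are known interferon-inducible genes. RefSeq windows of the 250 bases before the annotated start were matched by symbol for 4 of the 5 members, Lgals1 having no entry in the table used. Coordinates are those of GRCm38.p6, a later build than the mm9 named in the submitters' processing notes. Capitals mark pairs of GAAA units or their reverse complement TTTC, the building block of interferon-stimulated response elements. The window of Lgals3bp is chr11:118401960-118402209 and that of Lgals9 is chr11:78984925-78985174, both on the minus strand and written 5′ to 3′ along the gene.
Lgals3bp: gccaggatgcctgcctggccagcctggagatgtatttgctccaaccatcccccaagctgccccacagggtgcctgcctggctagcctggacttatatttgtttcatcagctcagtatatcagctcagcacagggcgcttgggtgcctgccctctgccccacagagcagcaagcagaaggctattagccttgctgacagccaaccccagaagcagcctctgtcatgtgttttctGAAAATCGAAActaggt
Lgals9: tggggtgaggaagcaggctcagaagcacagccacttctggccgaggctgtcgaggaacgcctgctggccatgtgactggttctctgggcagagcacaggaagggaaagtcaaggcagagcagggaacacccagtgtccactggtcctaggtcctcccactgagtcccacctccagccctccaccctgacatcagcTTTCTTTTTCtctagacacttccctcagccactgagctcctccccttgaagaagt

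The response element core GAAANNGAAA, searched on both strands, was present in Lgals9 from 55 to 46 bases before the start, as TTTCTTTTTC, and in none of the other 3 windows. It was present in 2.98% of 32851 RefSeq windows of that length. The Lgals3bp window held GAAAATCGAAA from 17 to 7 bases before the start, a pair of GAAA units spaced 3 bases apart in place of 2. That pattern, GAAANNNGAAA, was looked for only after the sequence had been read, and 2.38% of windows hold it. The gamma-activated sequence TTCNNNGAA, which was found in 7.02% of windows and equals its own reverse complement, was in none of the 4. The windows of Lgals3 and Lgals8 held none of the 3 patterns. A match of letters is a description of the window and no evidence of binding.

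The genes whose pattern over the 12 libraries was most like that of Lgals3bp, by Pearson correlation of log2 CPM among 10357 genes with a mean of at least 1 CPM, were Tap2 (r = 0.948), Irgm2 (0.948), H2-T10 (0.946), H2-Q4 (0.944) and Tap1 (0.944). Tap1 and Tap2 are the peptide transporter subunits of class I antigen loading, Irgm2 is an immunity-related GTPase, and the H2 genes are class I heavy chains with near-identical copies, whose reads are hard to assign. Tap2 averaged 60.8 CPM in ATEV, 31.9 in DNase-ATEV, 33.6 in NTEV and 26.7 in PBS, the same order of ATEV first and PBS last. The genes most like Lgals9 were Skil (0.919), Asb11 (0.918) and Itgal (0.914), the last being the alpha chain of the integrin LFA-1. Itgal averaged 71.1 CPM in ATEV, 65.2 in DNase-ATEV, 52.9 in NTEV and 29.4 in PBS, like Lgals9 well above PBS in each vesicle group. These likeness values rest on 12 libraries that share groups. The 5 genes named for Lgals3bp changed with the measure and with the libraries used. Genes named here and below for the other members were not checked in that way.

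Lgals1 and Lgals3 were the abundant galectins of these cells. Per kilobase of exon in GENCODE M21, the mean level over all libraries was 528 CPM per kb for Lgals1 and 439 for Lgals3, against 15.2 for Lgals9, 13.9 for Lgals3bp and 11.6 for Lgals8. The lowest library of Lgals1, at 444 CPM per kb, and the lowest of Lgals3, at 362, were above the highest of Lgals3bp at 29.9, Lgals9 at 22.6 and Lgals8 at 17.3. Lgals1 and Lgals3 overlapped each other on this scale, and so did the 3 scarcer genes. The annotated pseudogenes Lgals1-ps2 and Lgals1-ps1 held 0 and 1 counts over the 12 libraries.

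Lgals1, the prototype galectin known for limiting T cell responses, held 487, 519 and 591 CPM in ATEV, 441, 454 and 533 in DNase-ATEV, 401, 444 and 485 in NTEV and 441, 450.3 and 476 in PBS. ATEV lay just above PBS and NTEV without overlap, and the remaining groups overlapped. The log2 fold change was 0.22 ± 0.13 for ATEV against PBS, a fold of 1.17 with a 95% interval of 0.963 to 1.42. For DNase-ATEV it was 0.06 ± 0.13 and for NTEV -0.04 ± 0.13.

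Lgals3, the chimera galectin abundant in macrophages and recruited to broken endosomes, held 986, 920.2 and 843 CPM in ATEV, 678, 673 and 854 in DNase-ATEV, 782, 803 and 949 in NTEV and 741, 827 and 726 in PBS. ATEV lay above PBS by a small margin, and it overlapped DNase-ATEV and NTEV. The log2 fold change was 0.26 ± 0.14 for ATEV against PBS, a fold of 1.20 with a 95% interval of 0.973 to 1.48, -0.06 ± 0.14 for DNase-ATEV against PBS and 0.14 ± 0.14 for NTEV against PBS. ATEV against DNase-ATEV gave 0.32 ± 0.14, with an interval of 1.01 to 1.54 in fold. For both abundant galectins the intervals against PBS ended below a 2-fold rise. They rest on libraries whose spread may be technical and on genes picked with these values in view, so they exclude no change. Nor do they show that the levels were equal.

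Lgals8, the tandem-repeat galectin that senses damaged vacuoles, varied widely among replicates. It held 59, 48 and 34.5 CPM in ATEV, 35.2, 50.5 and 48.4 in DNase-ATEV, 29.3, 63.8 and 44.4 in NTEV and 24.4, 36 and 38.2 in PBS. All 4 groups overlapped, and the NTEV libraries alone spanned a ratio of 2.18 from lowest to highest. The log2 fold change against PBS was 0.52 ± 0.27 for ATEV, 0.44 ± 0.27 for DNase-ATEV and 0.48 ± 0.27 for NTEV. Single libraries moved it, with ATEV against PBS at 0.33 without ATEV replicate 1 and NTEV against PBS at 0.15 without NTEV replicate 2 and 0.74 without NTEV replicate 1. NTEV replicate 1, DNase-ATEV replicate 1 and PBS replicate 1 held 29.3, 35.2 and 24.4 CPM, each the lowest of its group.

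The gene most like Lgals8 over the 12 libraries was Slc38a9 (r = 0.979), a lysosomal amino acid sensor and a listed gene of the endolysosomal damage response, followed by Fbxl20 (0.972) and Brox (0.97). Slc38a9 held 12.5, 30.1 and 19.7 CPM in NTEV and 10.2, 15.6 and 15.4 CPM in PBS, with the same library order as Lgals8 in NTEV. It did not pass the test against PBS in ATEV (log2 fold change 0.57 ± 0.28, adjusted p = 0.211) or NTEV (0.60 ± 0.28, adjusted p = 0.27). Those most like Lgals3 were Ctnnbip1 (0.923), Bcl2l1 (0.901), an anti-apoptotic gene, and Cdc42ep2 (0.887).

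Lgals1 was most like the ribosomal protein genes Rps15a (0.949), Rps3a1 (0.948) and Rpl17 (0.947). The share of a library's counts in 85 ribosomal protein genes was 7.83 to 10% in ATEV, 6.29 to 8.33% in DNase-ATEV, 6.14 to 7.22% in NTEV and 6.41 to 7.64% in PBS. ATEV replicate 3 had the highest share, at 10%, together with the highest Lgals1 level and the lowest Lgals8 level of its group. NTEV replicate 1 had the lowest share, at 6.14%, and the lowest Lgals1 level of all. In NTEV, DNase-ATEV and PBS the library with the lowest share, replicate 1, also had the lowest Lgals8 level of its group. Those shares were 6.14%, 6.29% and 6.41%, with Lgals8 at 29.3, 35.2 and 24.4 CPM. The part of this share in the Lgals1 and Lgals8 levels was not tested.

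**Figure D3:**
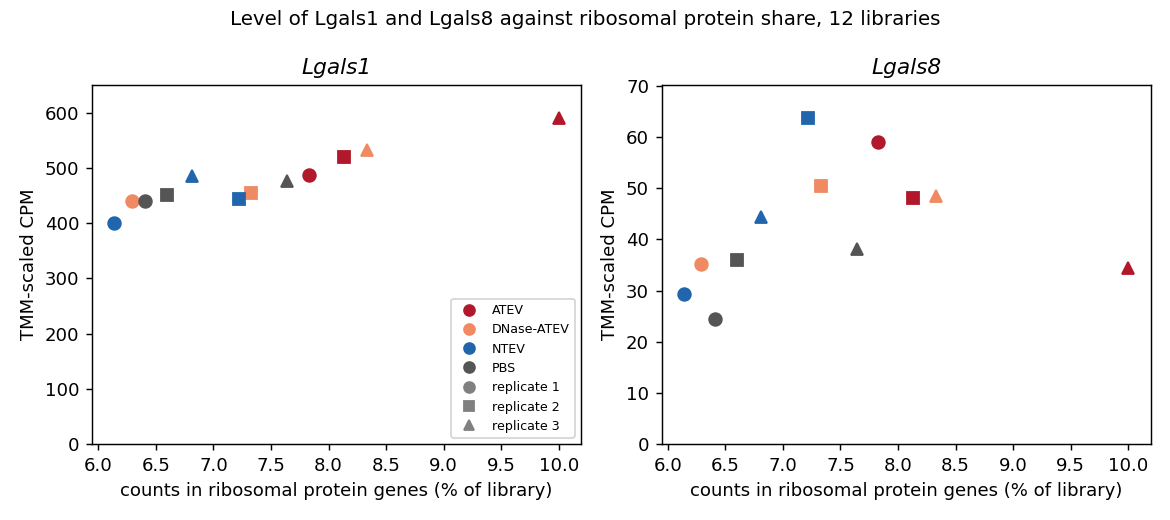
TMM-scaled CPM (y axis, from 0) of Lgals1 and Lgals8 against the percentage of counts in 85 ribosomal protein genes (x axis), 1 point per library. Lgals1 goes from 401 CPM in the library with the lowest share to 591 CPM in that with the highest, whereas Lgals8 is 29.3 CPM in the first and 34.5 CPM in the second, below several libraries in between.

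Counted against the whole table, edgeR's quasi-likelihood test at an adjusted p under 0.05 passed 2 of the 5 members for ATEV against PBS, Lgals3bp and Lgals9, both higher, where 4.74% of all genes passed and 3.32% passed as higher. For NTEV against PBS Lgals3bp and Lgals9 passed, again as higher, with 2.31% of all genes and 1.7% as higher. For ATEV against DNase-ATEV Lgals3bp passed as higher, with 1.46% of all genes and 1.32% as higher. For ATEV against NTEV Lgals3bp passed as higher, with 0.935% of all genes and 0.875% as higher. For DNase-ATEV against PBS none of the 5 passed and 0% of all genes did, with 2 members and 791 genes at an unadjusted p under 0.05. DESeq2 called Lgals3bp and Lgals9 among 37 genes in that comparison, limma-voom called 0, and edgeR called both without DNase-ATEV replicate 1. In NTEV against PBS neither passed without NTEV replicate 3 or PBS replicate 2, and Lgals9 did not pass without NTEV replicate 2 or PBS replicate 1. Libraries of the groups did not overlap for 4 members in ATEV against PBS (33.1% of all genes), 2 in DNase-ATEV against PBS (13.4%), 2 in NTEV against PBS (23.8%), 1 in ATEV against DNase-ATEV (20.2%) and 3 in ATEV against NTEV (15.8%). The median log2 fold change of the members was 0.52, 0.44 and 0.48 for ATEV, DNase-ATEV and NTEV against PBS, beside 0.03, 0 and 0 over all genes. As the members were picked with these values in view, nothing is read from their counts.

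Of 7 further family members 3 could be tested, and in the edgeR fit to all 12 libraries 0 passed in the 5 comparisons. An unadjusted p under 0.05 was reached by 1 in ATEV against PBS and 1 in DNase-ATEV against PBS. Of all 13261 genes, 3557 and 791 reached it in those comparisons. Lgalsl, which encodes a galectin-related protein, had 478 to 720 counts per library and stood at 25.5 ± 2.35 CPM in ATEV and 24.7 ± 1.94 in PBS (SD, n = 3 each; log2 fold change 0.05 ± 0.13, adjusted p = 0.844). Lgals4, a galectin of the gut lining, had 9 to 48 counts per library and 1.47 ± 0.336 CPM in ATEV against 0.542 ± 0.103 in PBS (1.43 ± 0.48, adjusted p = 0.0966). Lgals4 was called in that comparison by edgeR with no filter on low counts (adjusted p = 0.0345) and with only those 2 groups fitted (adjusted p = 0.0277). Lgals2 stayed at 4 to 20 counts per library. Lgals7, Lgals12 and Grifin had 16, 3 and 0 counts over the 12 libraries, and Lgals6 was not analysed here.

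Of 16 tested genes for N-glycan branching and N-acetyllactosamine extension, enzymes that build the sugars galectins bind, 1 rose in ATEV against PBS and none fell. That is 6.25%, beside 4.74% of all genes, with a median log2 fold change of 0.11 for the list and 0.03 over all genes. That gene was B3gnt3, an N-acetylglucosaminyltransferase that extends galactose-ended chains. It held 6.89, 11.2 and 9.81 CPM in ATEV and 4.91, 4.79 and 4.87 CPM in PBS, groups that did not overlap (0.94 ± 0.20, adjusted p = 0.0181). DNase-ATEV held 5.34, 5.73 and 5.59 CPM and NTEV 6.11, 5.08 and 6.17 CPM. In the edgeR fit ATEV did not pass against DNase-ATEV (0.74 ± 0.19, adjusted p = 0.0915) or NTEV (0.68 ± 0.19, adjusted p = 0.158). DESeq2 called both (adjusted p = 0.0155 and 0.0382). The edgeR call of B3gnt3 in ATEV against PBS was lost in 5 of 6 fits that left out 1 library. It held only without ATEV replicate 1 (adjusted p = 0.00367 to 0.0964 over the 6). Mgat5, which makes the branched N-glycans that galectin-3 favours, stood at 58.9 ± 16.1 CPM in ATEV and 44.7 ± 4.82 in PBS (0.40 ± 0.19, adjusted p = 0.193), and the galactosyltransferase B4galt1 at 193 ± 25.1 and 179 ± 14.4 CPM (0.11 ± 0.14, adjusted p = 0.64). In NTEV Mgat5 stood at 71.4 ± 13.5 CPM and did not pass in the edgeR fit to all 12 libraries (0.67 ± 0.19, adjusted p = 0.0839). It was called there by DESeq2 (adjusted p = 0.0243) and by edgeR with no filter on low counts (0.00907). With 1 library left out its adjusted p in NTEV was 0.0159 to 0.284.

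Among 16 tested enzymes that cap, start or trim glycans, 1 rose in ATEV against PBS and none fell (6.25% beside 4.74% of all genes, median 0.09). It was Neu3, a sialidase of the plasma membrane, at 4.35, 3.54 and 3.23 CPM in ATEV and 1.48, 1.74 and 2.28 CPM in PBS (1.02 ± 0.27, adjusted p = 0.0474). St6gal1, whose alpha2,6-linked sialic acid blocks binding of several galectins, varied widely, with 23.2 ± 7.55 CPM in ATEV and 34.8 ± 15.7 in PBS (-0.58 ± 0.44, adjusted p = 0.401). Neu3 did not pass in any of the 6 fits that left out 1 library (adjusted p = 0.0576 to 0.184), nor with limma-voom on all libraries (adjusted p = 0.052).

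Of 22 tested glycoproteins known to bind galectins or Lgals3bp, 3 rose in ATEV against PBS and none fell (13.6% beside 4.74% of all genes, median 0.14 beside 0.03). Itgb2, the beta chain shared by leukocyte integrins, held 249, 332 and 273 CPM in ATEV, 195, 164 and 182 in DNase-ATEV, 257, 259.6 and 323 in NTEV and 188, 181 and 189 in PBS. ATEV and NTEV lay above DNase-ATEV and PBS without overlap. It rose in ATEV against PBS (0.61 ± 0.14, adjusted p = 0.0267), in NTEV against PBS (0.59 ± 0.14, adjusted p = 0.0435) and in ATEV against DNase-ATEV (0.66 ± 0.14, adjusted p = 0.0315). Its partner Itgam, the alpha chain of the complement receptor Mac-1, rose in ATEV (134 ± 20.5 CPM, against 94.2 ± 5.12 in PBS; 0.51 ± 0.13, adjusted p = 0.0435) and in NTEV (137 ± 16.8 CPM; 0.54 ± 0.13, adjusted p = 0.048). With 1 library left out, the adjusted p of Itgb2 was 0.0175 to 0.128 in ATEV against PBS, 0.0172 to 0.22 in NTEV against PBS and 0.0182 to 0.19 in ATEV against DNase-ATEV, and that of Itgam was 0.0309 to 0.169 in ATEV against PBS and 0.014 to 0.225 in NTEV against PBS. Leaving out ATEV replicate 2 or any PBS library ended the calls of both in ATEV against PBS, as did ATEV replicate 1 for Itgam. Leaving out NTEV replicate 2 or 3 or any PBS library ended both in NTEV against PBS, and leaving out replicate 2 or 3 of ATEV or of DNase-ATEV ended that of Itgb2 between those groups.

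Lamp2, a sugar-coated protein of the lysosomal membrane, rose in ATEV, with 468, 504 and 576 CPM against 357, 352 and 403 CPM in PBS (0.48 ± 0.13, adjusted p = 0.0474). DNase-ATEV held 446, 449 and 452 CPM, also above every PBS library, but did not pass (0.28 ± 0.13, adjusted p = 0.824). NTEV held 371, 435 and 451 CPM (0.18 ± 0.13, adjusted p = 0.454). ATEV against DNase-ATEV did not pass either (0.2 ± 0.13, adjusted p = 0.457). Lamp2 passed only without ATEV replicate 1 among the 6 fits that left out 1 library (adjusted p = 0.0338 to 0.192). Lamp1, its close relative, stood at 1117 ± 127 CPM in ATEV and 1126 ± 21.7 in PBS (-0.01 ± 0.12, adjusted p = 0.965). Itga5, the fibronectin receptor alpha chain, rose in NTEV, with 102 ± 6.65 CPM against 65.3 ± 8.09 in PBS (0.64 ± 0.14, adjusted p = 0.0315). In NTEV it passed only without NTEV replicate 1 among the 6 such fits (adjusted p = 0.0194 to 0.153). In ATEV Itga5 stood at 92.3 ± 15.1 CPM and did not pass against PBS (0.5 ± 0.14, adjusted p = 0.0524). DESeq2 (adjusted p = 0.0196) and edgeR with no filter on low counts (0.0352) called it there. ATEV against NTEV did not pass (-0.14 ± 0.14, adjusted p = 0.674). Havcr2, the TIM-3 receptor of galectin-9, held 32.8, 41.1 and 32.7 CPM in ATEV, 31.9, 37.1 and 29.2 in DNase-ATEV, 31.7, 39.4 and 45.4 in NTEV and 22.4, 23.3 and 28.4 in PBS. Every vesicle library of Havcr2 lay above the highest PBS library, yet in the edgeR fit to all 12 libraries it did not pass in ATEV (0.53 ± 0.16, adjusted p = 0.078), DNase-ATEV (0.41 ± 0.16, adjusted p = 0.778) or NTEV (0.65 ± 0.16, adjusted p = 0.054). Havcr2 was called with DESeq2 in ATEV (adjusted p = 0.0346) and NTEV (0.00642), and by edgeR with no filter on low counts in ATEV (0.0442) and NTEV (0.0113). With 1 library left out its adjusted p was 0.0692 to 0.243 in ATEV and 0.0109 to 0.226 in NTEV, where it passed without NTEV replicate 1. Cd44, a hyaluronan receptor that also binds galectin-9, stood at 274 ± 15.5 CPM in ATEV and 256 ± 34.2 in PBS (0.10 ± 0.13, adjusted p = 0.648).

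The endolysosomal damage response, in which galectin-3 and galectin-8 mark broken membranes for removal, had 1 of 25 tested genes higher and none lower in ATEV against PBS (4% beside 4.74% of all genes, median 0.16). Optn, an autophagy receptor for ubiquitin-marked cargo, held 7.27, 5.83 and 4.56 CPM in ATEV, 2.31, 4.12 and 4.01 in DNase-ATEV, 3.8, 12.6 and 7.46 in NTEV and 1.96, 1.69 and 1.9 in PBS. All 9 vesicle libraries were above PBS, and NTEV replicate 2 was the highest. Optn rose in ATEV (1.67 ± 0.39, adjusted p = 0.0294) and in NTEV (2.1 ± 0.38, adjusted p = 0.0169). With 1 library left out its adjusted p was 0.0488 to 0.123 in ATEV, passing only without ATEV replicate 3, and with limma-voom on all libraries it was 0.0558. In NTEV it was 0.00162 to 0.083 with 1 library left out, passing only without NTEV replicate 1.

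Over the 5 lists together, 6 of 82 tested genes passed in ATEV against PBS, or 7.32% beside 4.74% of all genes. In NTEV against PBS 4 passed (4.88% beside 2.31%), and in ATEV against DNase-ATEV 1 passed (1.22% beside 1.46%). Without ATEV replicate 2 or any 1 of the PBS replicates 1, 2 and 3, 0 of the 82 passed in ATEV against PBS, and 3 passed without ATEV replicate 3. In NTEV against PBS 15 passed without NTEV replicate 1 and 0 without any 1 of the other 5 libraries. In ATEV against DNase-ATEV 3 passed without ATEV replicate 1, 1 without DNase-ATEV replicate 1 and 0 without any 1 of the other 4. The number of all genes called also swung over the fits that left out 1 library. It was 169 to 849 in ATEV against PBS and 34 to 1685 in NTEV against PBS. For ATEV against DNase-ATEV it was 78 to 522, and against NTEV 70 to 302. These list counts are therefore not read as a trait of the lists. In DNase-ATEV against PBS 0 of the 82 passed edgeR's test, 0 passed DESeq2 and 0 limma-voom. An unadjusted p under 0.05 was reached by 9, beside 791 of all 13261 genes. In ATEV against NTEV 0 of the 82 passed edgeR's test, and 13 had an unadjusted p under 0.05, beside 1775 of all 13261 genes. DESeq2 called 1, limma-voom 0, and edgeR 3 without ATEV replicate 1.

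**Figure D4:**
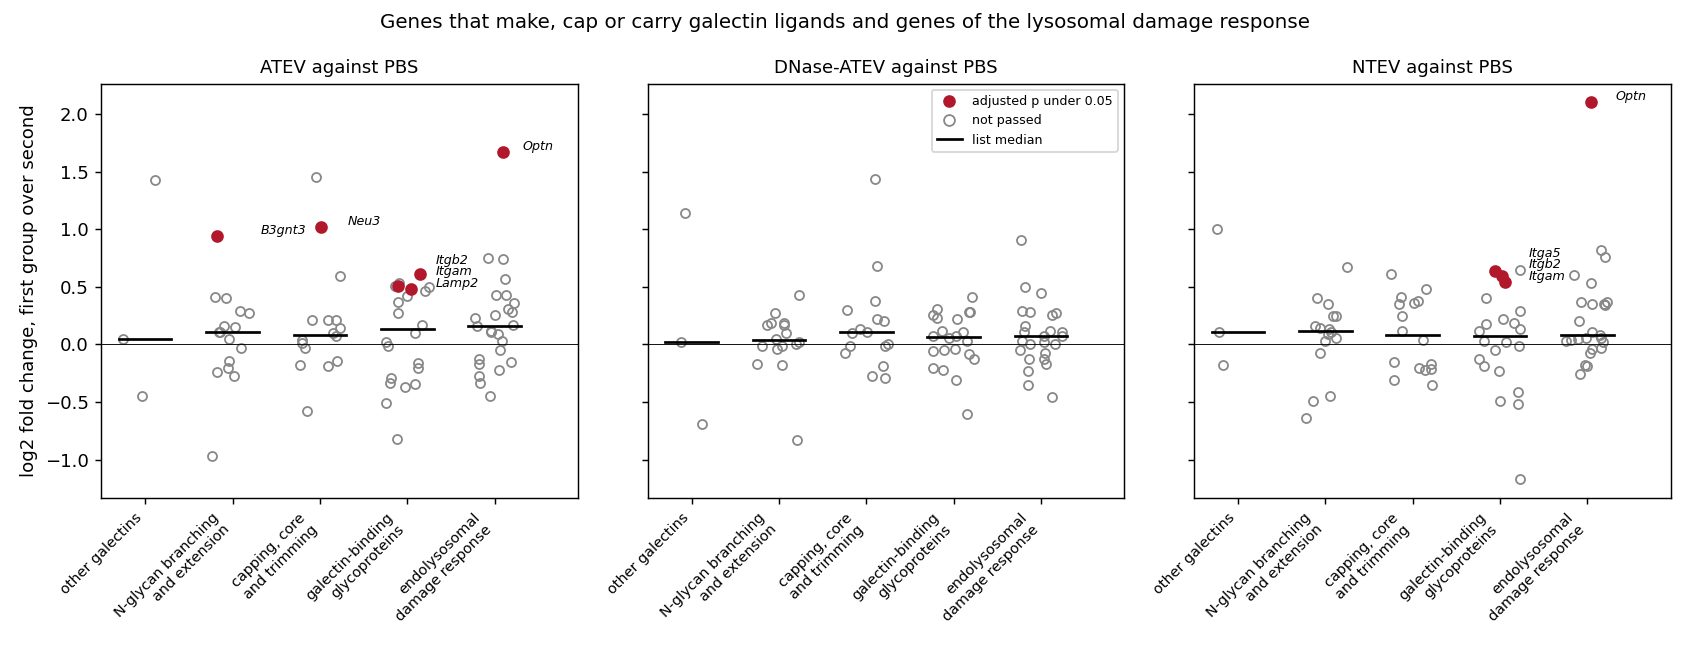
Fitted log2 fold change (y axis) of the 82 tested genes of 5 lists in 3 comparisons with PBS, 1 point per gene, filled where the edgeR adjusted p was under 0.05, with a bar at each list's median. Named points are the 6 genes called in ATEV against PBS and the 4 called in NTEV against PBS, and the list medians lie between 0.02 and 0.16.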

How the data were processed

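The values are whole-number counts per gene, deposited by the authors without normalization, 1 column per library. Tools listed in the submitters' processing notes are Cufflinks 2.1.1, TopHat, TopHat2 2.0.11 and bcl2fastq 2.19, with the build mm9. Per the labels' protocols, libraries came from a TruSeq stranded mRNA kit. The read counter, its annotation and its strand setting are not given in the sources used here. Overlapping and antisense genes therefore cannot be told apart with certainty. Libraries were grouped by title. Symbols were matched for 42250 of 42687 identifiers (GENCODE M21). Replicates differed by more than counting noise (chi-square per degree of freedom 14.7 to 130).

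The fit used edgeR 4.0.16 under R 4.3.3: filterByExpr (minimum count 10, minimum total 15), TMM, and a quasi-likelihood model of 4 group means over all 12 libraries. Adjusted p-values are Benjamini-Hochberg over 13261 genes per contrast, two-sided, with calls under 0.05. Each standard error is the fold change over the root of its F. TMM-scaled CPM give the levels. Likeness used log2 CPM with a prior count of 2. DESeq2 1.42.0 and limma-voom (limma 3.58.1) were alternatives. The procedure was tested on counts simulated for ATEV against PBS. It called 6 of 50 genes changed 1.5-fold, 42 of 50 changed 2-fold and 50 of 50 changed 4-fold, and 10 unchanged genes. A gene that did not pass may therefore still have changed by 1.5-fold, and some by 2-fold or more. The other comparisons were not simulated. In DNase-ATEV against PBS, Lgals9 did not pass at a fitted fold of 2.13. Members and lists were chosen with earlier results of these data known. Named genes were the members, up to 6 called genes per list, 7 direct partners (Havcr2, Cd44, Lamp1, Lamp2, Mgat5, B4galt1, St6gal1), the 5 genes most like Lgals3bp and the 3 most like each other member; other named list genes were chosen after their values were seen.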

Additional observations from a re-analysis of the deposited data

How the results depend on the processing

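For the 5 members, all 300 fold changes under the alternatives moved by less than the spread between replicates. The count of members passing was unchanged by every alternative in the 3 comparisons ATEV against PBS, DNase-ATEV and NTEV. For DNase-ATEV against PBS it was 2 with no filter on low counts and 2 with DESeq2, against 0, and 0 to 2 with 1 library left out. For NTEV against PBS it was 0 with only the 2 groups compared, against 2, and 0 to 2 with 1 library left out: Lgals3bp lost its call without NTEV replicate 3 or PBS replicate 2, and Lgals9 without NTEV replicate 2 or 3 or PBS replicate 1 or 2.

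In none of the 5 comparisons did all 3 same-numbered pairs correlate above 0.1 in their deviations from group means, so the numbers were not taken to pair the libraries. Over all groups 6 of 18 such pairs did (-0.38 to 0.62), among them the 3 of DNase-ATEV and NTEV (0.62, 0.35 and 0.13) and replicate 1 of DNase-ATEV, NTEV and PBS (0.44 to 0.62), and 6 of 12 libraries were closest to their own number. With a replicate block, genes called numbered 1440 for ATEV against PBS and 1 for DNase-ATEV against PBS, and list genes 12 for ATEV against PBS and 2 for ATEV against DNase-ATEV. The block gave adjusted p = 0.0486 for Havcr2 and 0.043 for Itga5 in ATEV against PBS. In NTEV against PBS it gave 0.0488 for Havcr2, 0.0398 for Mgat5 and 0.0518 for Itgam and for Itgb2.

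Counts over all genes moved more. Against 628, 0, 306, 194 and 124 for ATEV, DNase-ATEV and NTEV against PBS, ATEV against DNase-ATEV and ATEV against NTEV, no filter gave 1317, 47, 876, 394 and 242, and DESeq2 gave 1517, 37, 826, 467 and 361. Fitting only the 2 groups gave 1244 for ATEV against PBS, 19 for NTEV against PBS and 82 for ATEV against NTEV. Leaving out 1 library gave 169 to 849, 0 to 8, 34 to 1685, 78 to 522 and 70 to 302.

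List genes called, against 6, 0, 4, 1 and 0, numbered 13 for ATEV against PBS, 10 for NTEV against PBS and 1 for ATEV against NTEV with no filter. DESeq2 gave 13, 9, 5 and 1 for ATEV against PBS, NTEV against PBS, ATEV against DNase-ATEV and ATEV against NTEV. limma-voom gave 4 for ATEV against PBS, where Neu3 and Optn lost their calls, and 2 for NTEV against PBS, and fitting only the 2 groups gave 0 there and 0 for ATEV against DNase-ATEV. Leaving out 1 library gave 0 to 5, 0 to 0, 0 to 15, 0 to 3 and 0 to 3. Of 780 named list gene values, 66 lost a call and 20 gained one. The cause was not tested. DESeq2 size factors in edgeR gave adjusted p = 0.0481 for Havcr2 in NTEV against PBS.

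Of the 5 genes most like Lgals3bp, 5 were the same with a prior count of 0.5 and 0 by Spearman correlation. With 1 library left out, 1 to 4 were the same. The genes most like the other members were not put to these checks. Low depth limits the values of Lgals2 (4 to 20 counts per library) and Lgals4 (9 to 48).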
